A study of Mus musculus with 3 samples.

Results

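Genes that mark epithelial or otherwise out-of-place identity were followed through single-cell RNA counts of mouse brain: Krt8, Krt18, Wfdc2, Rbp4, Rhox5, Esx1, Aebp1 and Serpinh1. They make up 8 of the 31053 genes counted. They were picked by name because earlier results of these data placed them among the genes of the deposited clusters 0, 1, 3, 4 and 5, so their levels over clusters are given as a description without a test. Those 5 clusters held 3946 of 5360 and 4360 of 6174 cells of the brains with metastases and are called the core clusters here. The label under which the genes were grouped was only partly borne out. Krt8 was high in the core clusters, whereas Krt18 was close to 0 there and was highest in choroid plexus-like cells. None of 11 other keratins and 22 epithelial junction genes reached 50 CPM (a scaled count) in the core. Of all genes counted 8.70% did, so most genes lay below that line too.

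The study set brains of tumour-free (naive) mice against brains with metastases of E0771 cells, a mammary carcinoma line of the C57BL/6 mouse that was injected into the carotid artery. All animals were female C57BL/6 mice aged 2 to 3 months, and the metastases had grown for about 2 weeks. Each sample was a single brain hemisphere, digested with papain and put through a Percoll gradient to enrich immune cells. The 4 suspensions (2 naive, 2 with metastases) carried a hashing antibody each and went through a single droplet run with antibodies to CD45, CD25, CD3, CD4, CD11b and CD86. The labels do not say which cells are tumour cells.

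Keratin 8 (type II) and keratin 18 (type I) are the filament pair of simple epithelia, in which a type II chain polymerises with a type I chain. Wfdc2 (also HE4) is a small secreted protein with whey acidic protein domains, and Rbp4 carries retinol in blood together with transthyretin. Rhox5 and Esx1 are X-linked homeobox genes best known from the reproductive tract and the placenta. Aebp1 encodes a secreted carboxypeptidase-like protein of connective tissue, and Serpinh1 (Hsp47) encodes the collagen chaperone of the endoplasmic reticulum.

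All 8 genes were found in RefSeq's table of promoter windows (build GRCm38.p6), Wfdc2 and Rbp4 with 2 listed starts each. The 250 bases before the listed start are printed for 4 genes, 5′ to 3′ on the coding strand. Krt8 and Krt18 were taken because these neighbours, whose products pair, had their highest levels in different clusters. Both were detected in choroid plexus-like cells. Rhox5 and Esx1 were taken because these X-linked homeobox genes were detected together. The windows are chr15:102004343-102004592 (Krt8, minus strand), chr15:102027966-102028215 (Krt18, plus strand), chrX:37754358-37754607 (Rhox5, plus strand) and chrX:137120327-137120576 (Esx1, minus strand). The listed starts of Krt8 and Krt18 lie 23.9 kb apart and the genes are transcribed away from each other. Capitals mark matches, on either strand, to any of 4 motifs. These were the TATA box (TATAAA), the CCAAT box (CCAAT), the GC box (GGGCGG) and the AP-1 site (TGACTCA).
Krt8: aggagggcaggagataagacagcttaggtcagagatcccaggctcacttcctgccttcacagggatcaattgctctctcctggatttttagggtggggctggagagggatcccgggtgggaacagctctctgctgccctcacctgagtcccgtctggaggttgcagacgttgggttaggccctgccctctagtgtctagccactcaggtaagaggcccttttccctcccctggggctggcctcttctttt
Krt18: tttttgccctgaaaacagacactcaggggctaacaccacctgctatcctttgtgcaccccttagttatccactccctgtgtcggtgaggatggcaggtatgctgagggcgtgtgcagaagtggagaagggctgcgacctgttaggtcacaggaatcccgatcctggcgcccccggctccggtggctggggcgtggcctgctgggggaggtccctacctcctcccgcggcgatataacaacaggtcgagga
Rhox5: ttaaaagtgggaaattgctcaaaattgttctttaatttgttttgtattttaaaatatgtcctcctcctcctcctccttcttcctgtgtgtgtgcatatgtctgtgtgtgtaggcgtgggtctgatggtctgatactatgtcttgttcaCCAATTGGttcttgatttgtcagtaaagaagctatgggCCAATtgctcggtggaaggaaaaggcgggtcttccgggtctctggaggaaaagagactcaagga
Esx1: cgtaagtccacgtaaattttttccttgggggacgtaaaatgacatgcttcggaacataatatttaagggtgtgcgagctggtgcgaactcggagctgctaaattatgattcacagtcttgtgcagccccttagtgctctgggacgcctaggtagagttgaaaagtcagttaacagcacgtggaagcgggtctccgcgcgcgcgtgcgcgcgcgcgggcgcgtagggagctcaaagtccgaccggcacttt

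Searching the 300 bases from 250 before to 50 after the listed start, Rhox5 held 3 CCAAT matches, of which a pair overlaps on opposite strands, while 37.4% of 32851 windows held at least 1. Krt8 held 2 overlapping TATAAA matches across its listed start, partly beyond the printed bases, against 13.6% of windows with any. Krt18 and Esx1 held none of the 4 motifs. GGGCGG was found once each in Wfdc2, Aebp1 and Serpinh1 and occurs in 35.7% of windows. Of its 2 starts Rbp4 held 1 CCAAT box and 5 CpG at 1, and 40 CpG at the other, which also held 1 TATA box, 2 GC boxes and 1 AP-1 site, the last of which occurs in 5.20% of windows. The number of CpG in the window was 6 in Krt8, 17 in Krt18, 5 in Rhox5 and 24 in Esx1, beside a median of 7 and quartiles of 3 and 20 over all windows. These matches describe letters and say nothing about binding.

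The brains yielded 572 and 315 cells (naive 1 and 2) and 5360 and 6174 cells (metastasis 1 and 2), with medians of 1393.5, 1230, 7294 and 7707.5 UMIs per cell. All 12421 barcodes stand once in the table, and each has a single brain. From markers, cluster 6 was endothelial-like (10 of 10 markers leading, among them Cldn5 and Pecam1, with 4 of 10 mural and 3 of 6 ependymal markers). Clusters 7 and 9 were choroid plexus-like (10 of 11, Ttr the highest) and cluster 11 mural-like (6 of 10). Cluster 2 was monocyte-like (10 of 11, with 3 of 11 microglia, 2 of 7 neutrophil, 2 of 7 NK and 2 of 10 dendritic markers). It also had 1 of 8 T cell and 1 of 5 B cell markers leading. Cluster 12 was microglia-like (11 of 11, with 4 of 7 neutrophil, 6 of 11 monocyte and 4 of 10 dendritic markers). Cluster 8 mixed markers of several types and stays unnamed. In cluster 10 only monocyte markers led (4 of 11), and it stays unnamed too. The core clusters also stay unnamed, with Krt8 as their 1 leading marker of 9 on the carcinoma list. Naive brains had 79 and 23 cells in the core clusters. The hashing margin of these cells, the authors' gap between the best and the next tag on a scale the labels do not give, had a median of 0.407 in naive 1 and 1.47 in naive 2, against 2.42 and 1.96 in the other cells of these brains. Core cells of the brains with metastases had 1.57 and 1.34, against 2.33 and 2.10 in their other cells, so margins were lower in the core in each brain. Levels are given as CPM, the gene's UMIs scaled to the summed UMIs of the same cells. UMIs are counted at the 3′ end and scaled to no gene length. Different genes are set against each other only as shares of counted UMIs.

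Of the 8 genes, 7 were well above the level of the monocyte-like cluster 2 in every core cluster of both brains with metastases, and Krt18 was not. Over the core clusters together Krt8 stood at 428 CPM in metastasis 1 and 674 in metastasis 2 (551 ± 174, mean ± SD, n = 2), from 17700 and 34925 UMIs. Krt18 stood at 2.90 and 0.792 CPM, from 120 and 41 UMIs in 97 and 35 cells, and at most 5 of these UMIs were in any single cell. The Krt18 level in the core clusters was thus no higher than in the monocyte-like cluster 2, which had 4.58 and 2.17 CPM from 7 and 5 UMIs and is a cell type without simple keratins. Krt18 itself was countable in this library, because the choroid plexus-like cluster 9 had 196 and 239 CPM in the same brains.

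Among the secreted proteins, Wfdc2 stood at 540 and 351 CPM in the core clusters (445 ± 134, n = 2), the reverse order of the brains to Krt8. Rbp4 stood at 323 and 367 CPM (345 ± 31.2). The homeobox genes were close to even, with Rhox5 at 566 and 584 CPM (575 ± 12.2) and Esx1 at 524 and 538 CPM (531 ± 10.3). The extracellular matrix pair had Aebp1 at 270 and 261 CPM (265.5 ± 5.77) and Serpinh1 at 950 and 734 CPM (842 ± 152). Spread between the brains was therefore small for Rhox5, Esx1 and Aebp1 and large for Krt8, Wfdc2 and Serpinh1.

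**Figure D1:**
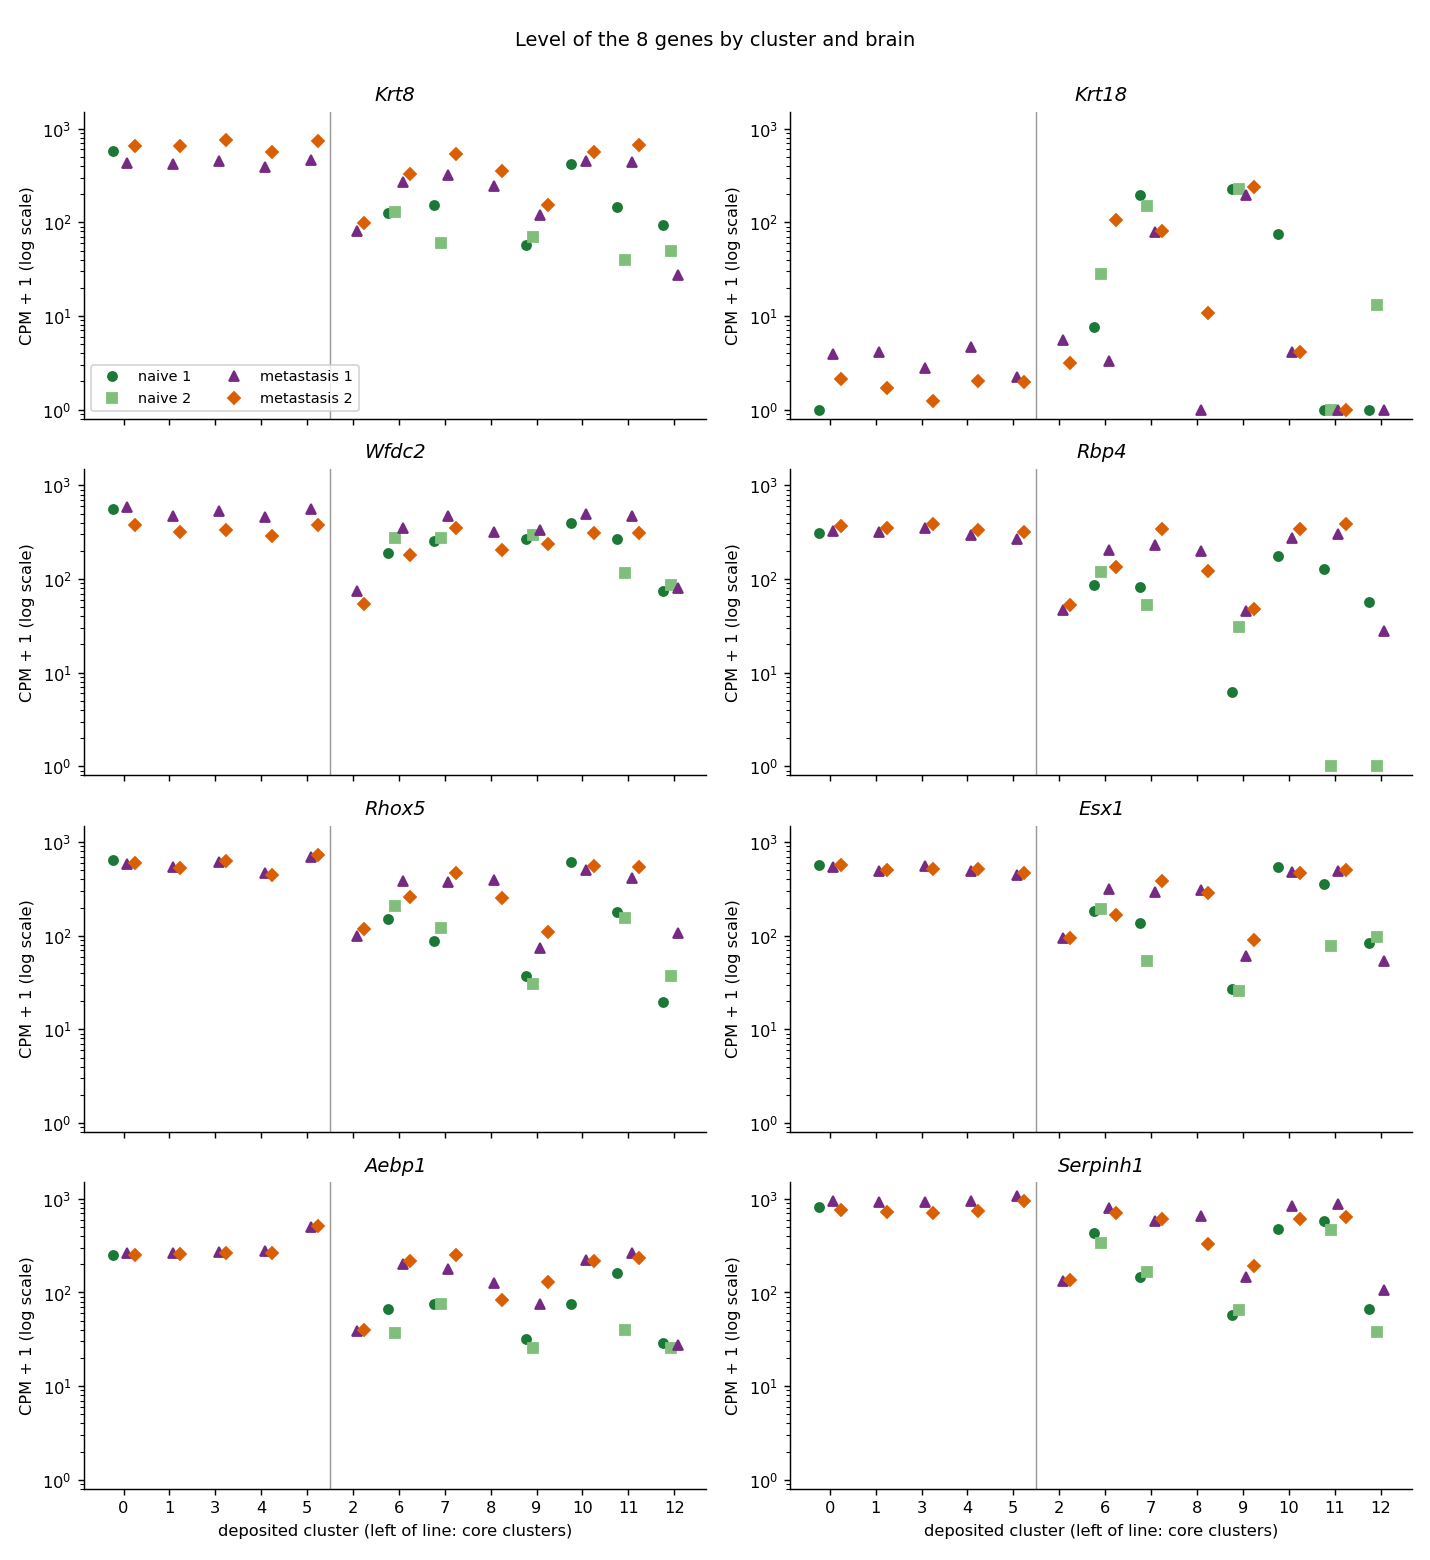
Level of each gene by deposited cluster and brain, as CPM + 1 on a log scale, for sums over at least 20 cells; core clusters stand left of the line and each point is 1 brain. The panels of 7 genes are near flat over the core clusters except for Aebp1, which is higher in cluster 5, while Krt18 lies near 0 there and in clusters 2 and 11 and peaks in clusters 7 and 9.

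Within the core the 7 genes varied little between clusters. The highest cluster exceeded the lowest by 1.15- to 2.08-fold. The widest difference was that of Aebp1, which stood at 496 and 517 CPM in cluster 5 and at 262 to 276 and 249 to 266 CPM in clusters 0, 1, 3 and 4, a ratio of 1.87 and 2.02 in the brains. The ratio over both brains was 1.94 ± 0.105 with all UMIs as the denominator and 1.78 without mitochondrial and ribosomal protein genes in it. Rhox5 was highest in cluster 5 (697 and 723 CPM) and lowest in cluster 4 (462 and 441 CPM) in both brains. Krt8 was also lowest in cluster 4 in both (386 and 561 CPM). Rbp4 and Esx1 went the other way in cluster 5, with 264 and 316 CPM for Rbp4 and 447 and 468 CPM for Esx1, the lowest of the core in both brains. For Krt8 and Wfdc2 the cluster 5 ratios of 1.10 and 1.06 moved to 1.01 and 0.970 with the other denominator, so for Wfdc2 the direction turned. Serpinh1 was lowest in cluster 3 (927 and 699 CPM) and highest in cluster 5 (1066 and 943 CPM).

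Between the brains with metastases, Krt8 and Wfdc2 differed in opposite directions. In the core clusters metastasis 2 over metastasis 1 was 0.66 on the log2 scale for Krt8 and -0.62 for Wfdc2, and -0.37 for Serpinh1. Rbp4 had 0.18, Rhox5 0.04, Esx1 0.04 and Aebp1 -0.04. Among the 1467 genes at 100 CPM or more in the core, 104 (7.09%) differed by more than 1.3-fold either way, and by size of the difference Krt8 was 12th, Wfdc2 19th and Serpinh1 110th. The 1.3-fold line was set after the values had been seen, and with 1 brain on each side there is no test. The order of the brains was the same in each core cluster for Krt8, whose ratio ran from 1.45 (95% counting interval 1.35 to 1.56) in cluster 4 to 1.65 (1.57 to 1.73) in cluster 3. Serpinh1 ratios ran from 0.754 (0.727 to 0.782) in cluster 3 to 0.885 (0.807 to 0.970) in cluster 5. Intervals cover counting error only.

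The pair of genes makes a within-brain measure that does not depend on the total. Krt8 UMIs were 44.2% of Krt8 plus Wfdc2 UMIs in the core of metastasis 1 (exact 95% interval 43.8 to 44.7) and 65.8% in metastasis 2 (65.4 to 66.2). Outside the core the same share stood at 43.6% (37.6 to 49.7) and 64.5% (57.8 to 70.9) in the endothelial-like cluster 6. The choroid plexus-like cluster 7 had 40.9% (36.9 to 45.0) and 60.2% (57.0 to 63.2). The core value of the same brain lay inside each of these intervals, except that of cluster 7 in metastasis 2. In cluster 2 the share was 51.9% (45.3 to 58.5) in metastasis 1, above the core, and 64.7% (59.4 to 69.7) in metastasis 2. Cluster 9, choroid plexus-like too, lay lower, at 26.4% and 39.0%. The naive brains had shares of 39.6% and 31.8% in cluster 6, 37.4% and 17.8% in cluster 7, and 17.5% and 19.2% in cluster 9. Naive cells of the core clusters had 51.9% (48.5 to 55.2) and 61.3% (48.1 to 73.4). The share in naive 1 thus lay between those of the brains with metastases and outside both intervals. All these intervals cover counting error only, not the spread between cells or brains, so they do not test whether brains differ.

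**Figure D2:**
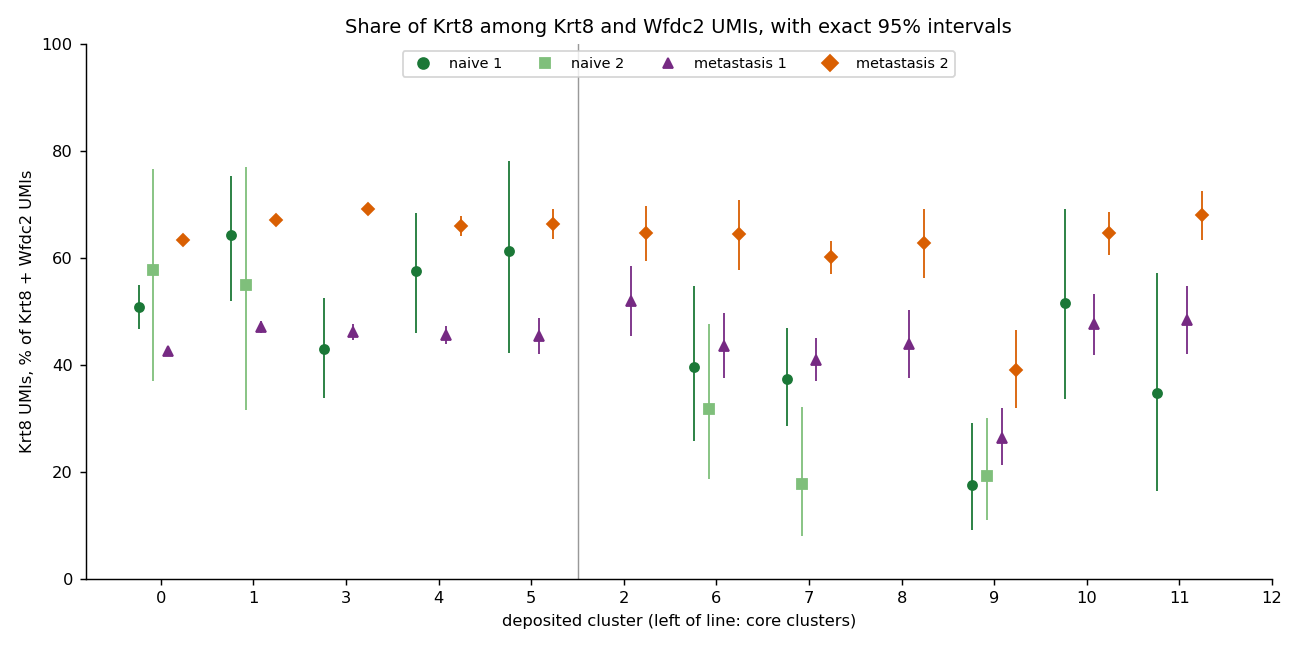
Krt8 UMIs as a percent of Krt8 plus Wfdc2 UMIs by cluster and brain, with exact 95% intervals, where both genes together had at least 20 UMIs. Metastasis 2 lies above metastasis 1 in every cluster shown, and cluster 9 lies lowest of the clusters shown in both brains with metastases.

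Single cells of the core differed in depth, so each cell was thinned to 1000 UMIs and shallower cells (35 and 30) were left out. In cluster 2 this left out 197 and 321 cells, so its shares describe its deeper cells. Krt8 then had a UMI in 32.6% of 3911 cells of metastasis 1 (exact 95% interval 31.2 to 34.1) and 45.7% of 4330 cells of metastasis 2 (44.2 to 47.2). In the monocyte-like cluster 2, which should lack Krt8, the shares were 5.37% of 521 cells and 5.26% of 742 cells at the same depth. Krt18 had a UMI in 0.128% and 0.0693% of the core cells and in 0.576% and 0.135% of cluster 2, at or below that background. Shares in the core and in cluster 2 were 37.3% and 27.5% against 5.37% and 4.04% for Wfdc2. They were 39.5% and 40.2% against 7.29% and 7.28% for Rhox5. For Aebp1, with the lowest share among the 7, they were 24.5% and 23.1% against 2.30% and 1.75%. Of thinned core cells, 3.96% and 4.69% had no UMI of any of the 7 genes, against 69.5% and 72.9% in cluster 2. Before thinning, median depths were 10080 and 11052 UMIs in the core and 1547.5 and 1466 in cluster 2.

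Within the core the measured correlations between the genes from cell to cell were low. At 5000 UMIs per cell the median Spearman correlation over the 21 pairs of the 7 genes was 0.0448 in 3087 cells of metastasis 1 and 0.0276 in 3508 cells of metastasis 2. The highest pair was Wfdc2 with Rhox5 in metastasis 1 (0.177) and Esx1 with Serpinh1 in metastasis 2 (0.137). In sparse counts of cells that share a library such weak values are no finding, neither of a relation nor of its absence. Cells outside the core, pooled over clusters, had medians of 0.386 and 0.371 over 226 and 295 cells, with all 21 pairs above 0.

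Outside the core, the level of each gene was set against the core clusters, those of the same brain for the brains with metastases and those of both such brains pooled for the naive brains, beside 50 other genes that were leading in the core over clusters 2 and 9. That reference was chosen after a first version had been seen, and its low level in clusters 2 and 9 follows from the choice. In cluster 2 the 7 genes stood at 13.6% to 18.5% of the core level in metastasis 1 and 14.1% to 19.9% in metastasis 2, with the 50 genes at 17.8% and 21.2%. In clusters 10 and 11 they stood at 72.5% to 105% and 82.6% to 106%. The cells of cluster 11 with metastases had medians of 9974 and 10370 UMIs, against 814 and 871 in naive cells. In cluster 9 Wfdc2 was the highest of the 7 and stood at 61.8% and 67.0% of the core level where the 50 genes stood at 15.9% and 23.1%. In CPM, Wfdc2 in cluster 9 was 267 and 291 for naive 1 and naive 2, beside 333 and 235 for the brains with metastases, so the groups overlapped. The 50 genes were at 7.02% and 9.36% of the pooled metastasis core in those naive cells. Aebp1 also stood above the 50 genes in cluster 9 of the brains with metastases, at 27.9% and 49.4%. Krt8 stood at 27.9% and 22.3%, above the 50 genes in metastasis 1 only. Rhox5, Esx1 and Rbp4 stood at 11.6% to 18.5% of the core in cluster 9.

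In the endothelial-like cluster 6 the matrix genes stood highest. Serpinh1 was at 84.8% and 96.0% of the core level and Aebp1 at 74.0% and 82.0%, against 78.3% and 69.1% for the 50 genes. Esx1 was at 60.7% and 30.7% and Rbp4 at 62.5% and 36.6%. Serpinh1 was at 434 and 336 CPM in naive cells of this cluster and at 574 and 461 CPM in those of the mural-like cluster 11. In the unnamed cluster 8 the 7 genes ran from 46.8% to 70.1% and from 31.5% to 58.6%.

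**Figure D3:**
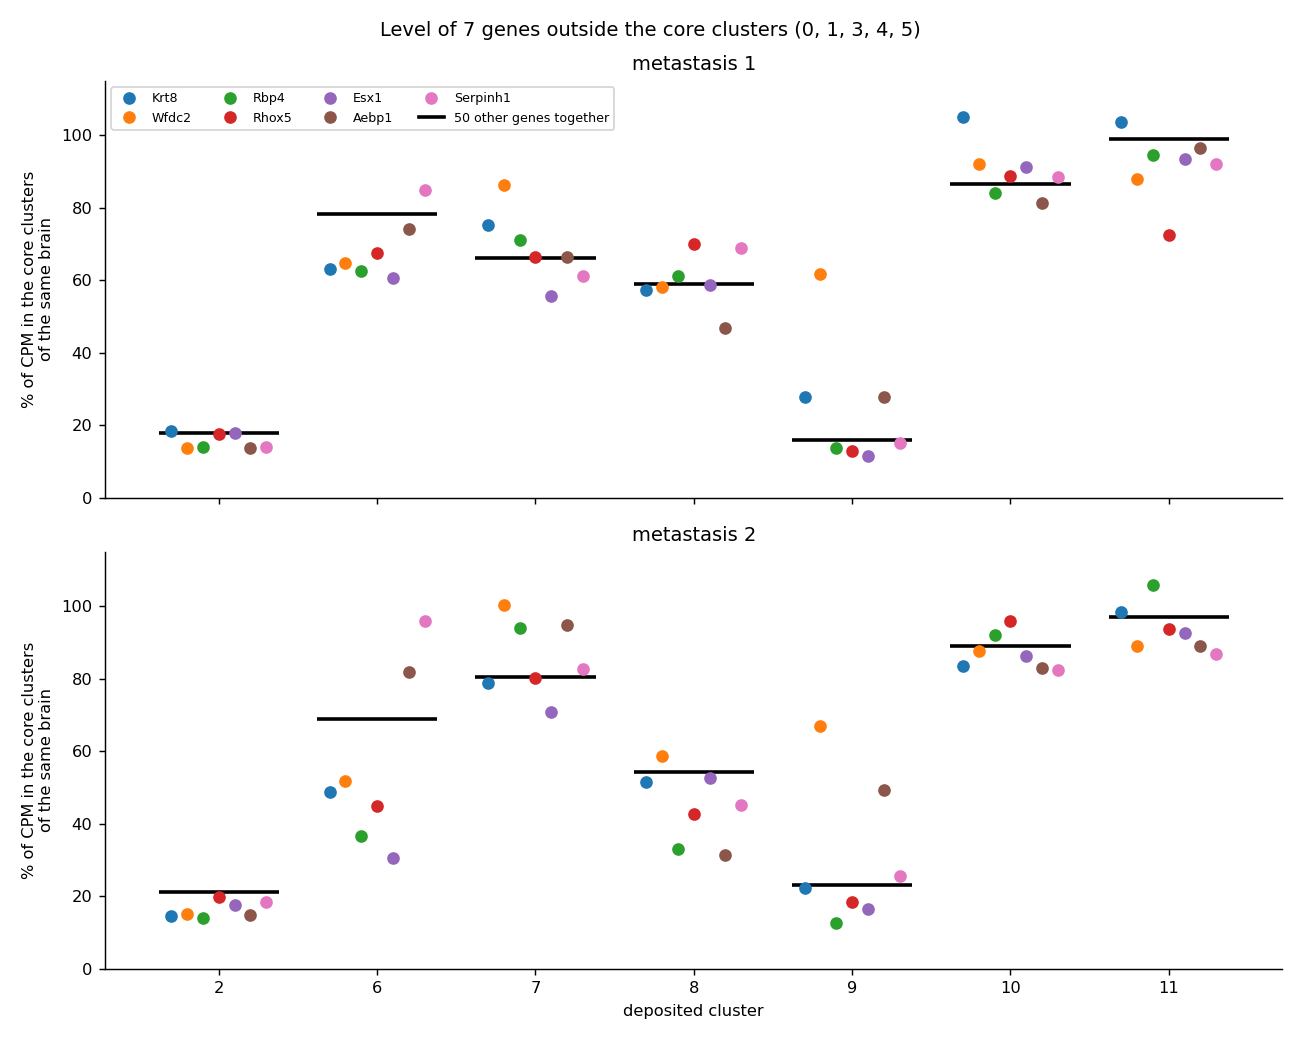
CPM of 7 genes in clusters outside the core as a percent of the same brain's core level, in the brains with metastases, with the black line giving 50 other leading genes together. In cluster 9 Wfdc2 is the highest of the 7 in both brains, at 61.8% and 67.0%.

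Ordered by mean level in the brains with metastases, Krt18 ran from cluster 9 (218 CPM) over clusters 7 and 6 to near 0 elsewhere. Cluster 7 had 78.4 and 80.0 CPM with metastases and 196 and 149 CPM in naive brains. Most Krt18 UMIs of cluster 6 came from a single cell. Metastasis 2 had 45 Krt18 UMIs there, 35 of them in 1 cell of 8840 UMIs, and 10 in all other 124 cells. That cell also held 18 UMIs of Epcam, the epithelial adhesion molecule, 11 of Wfdc2, 4 of Krt8 and 4 of Krt17, with none of Rhox5, Esx1, Rbp4, Aebp1 or the endothelial Cldn5. The other 3 brains had 1, 3 and 1 Krt18 UMIs in cluster 6. In cluster 11 no Krt18 UMI was seen, which allows up to 11.3 and 6.99 CPM in the brains with metastases.

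The difference between naive brains and brains with metastases was tested in clusters 6, 7, 9 and 11 and in the core clusters, on UMIs summed per brain (edgeR quasi-likelihood, Benjamini-Hochberg adjusted p over all genes of the fit, threshold 0.05). CPM beside these tests are scaled by TMM, and log2 fold changes are given with their SE. In the choroid plexus-like cluster 7, 14.2% of 5963 genes rose with metastases and 16.9% fell (31.1% in all). Of the 8 genes 6 rose and 1 fell. Rhox5 went from 102 and 134 CPM in naive brains to 367 and 444 CPM (log2 1.83, SE 0.27, adjusted p = 0.00276). Serpinh1 went from 171 and 185 CPM to 566 and 577 CPM (log2 1.69, SE 0.23, adjusted p = 0.00276). For both genes every brain with metastases lay above every naive brain. The same held for Wfdc2 in this cluster, which did not pass, so it does not set the calls apart. How many of all genes of the fit behaved so was not counted. Krt8 (1.63), Rbp4 (1.78), Esx1 (1.43) and Aebp1 (1.28) rose as well, with adjusted p from 0.00430 to 0.0117. Wfdc2 had 293 and 311 against 455 and 334 CPM and did not pass (log2 0.39, adjusted p = 0.233).

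Krt18 was the gene whose CPM fell in cluster 7. It went from 228 and 168 CPM to 76.5 and 75.9 CPM (edgeR, log2 -1.42, SE 0.27, adjusted p = 0.00475). As counts, it had 56 and 20 UMIs in 135 and 62 naive cells. In the brains with metastases it had 59 and 90 UMIs in 153 and 148 cells. The fall was thus one in the share of the summed UMIs. Other genes of choroid plexus moved with Krt18: Ttr fell by 1.66 on the log2 scale and Spint2, a protease inhibitor of epithelia, by 1.53. The 11 choroid plexus markers summed to 285773 and 271147 CPM in naive cells of the cluster and to 128934 and 76808 CPM with metastases. The 50 leading genes of the core stood at 17.7% of the pooled metastasis core in each naive brain and at 66.1% and 80.4% of the same brain's core with metastases. The cells with metastases were deeper, with medians of 3149 and 4910 UMIs against 2054 and 1988.5. Their part in the result was not tested. When only cells with at most 3 times the naive median UMIs were taken, a choice made after the depths had been seen, 0 of 8 genes passed (4 at an unadjusted p under 0.05, 601 such genes in all). Rhox5 then had log2 1.03, Serpinh1 1.19 and Krt18 -0.46 (adjusted p = 0.119, 0.0653 and 0.431). Without naive 1 the Krt18 call was lost too (log2 -1.06, adjusted p = 0.0627).

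In the choroid plexus-like cluster 9, where depths were alike (medians of 4574.5 and 5575.5 against 5371 and 5337.5 UMIs), 3.83% of 3473 genes rose and 0.461% fell (4.29% in all). Aebp1 rose from 33.8 and 28.3 CPM to 80.5 and 134 CPM (log2 1.76, SE 0.43, adjusted p = 0.0115). Serpinh1 rose from 62.0 and 73.7 CPM to 154 and 196 CPM (log2 1.35, SE 0.31, adjusted p = 0.00629). Rhox5 passed narrowly (edgeR, log2 1.35, adjusted p = 0.0497). These calls rest on few naive UMIs, 6 and 5 for Aebp1, 11 and 13 for Serpinh1 and 7 and 6 for Rhox5. Krt8 had log2 1.00 (adjusted p = 0.0612), Esx1 1.45 (0.0552) and Rbp4 1.26 (0.238), and none of these passed. Krt18 (log2 -0.15, SE 0.24) and Wfdc2 (-0.05, SE 0.24) did not pass. The choroid plexus markers were at 402331 and 419745 CPM in naive cells and at 366275 and 330575 CPM with metastases. Of the 3 calls, 0 were made by DESeq2, where 5 of the 8 genes had an unadjusted p under 0.05, against 227 of all 3473. Within 3 times the naive median depth edgeR made 0 of the 3 calls. There 3 of 6 tested had an unadjusted p under 0.05, against 271 of all 3120 genes. Leaving out naive 1, naive 2 or metastasis 1 left 0 calls, and leaving out metastasis 2 left that of Serpinh1. The adjusted p then ran from 0.115 to 0.348 for Rhox5 and from 0.0780 to 0.181 for Aebp1, and Serpinh1 had 0.0564 to 0.236 where its call was lost.

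In the endothelial-like cluster 6, 2.34% of 4539 genes rose and 5.24% fell (7.58% in all), and 3 of the 7 tested genes rose. Aebp1 went from 72.3 and 41.2 CPM to 228 and 236 CPM (log2 1.97, SE 0.37, adjusted p = 0.0155). Krt8 went from 137 and 144 CPM to 308 and 363 CPM (log2 1.25, SE 0.28, adjusted p = 0.0295), and Serpinh1 from 477 and 382 CPM to 920 and 775 CPM (log2 0.97, SE 0.23, adjusted p = 0.0314). The Aebp1 call rests on 10 and 4 naive UMIs. The groups did not overlap for the called genes, nor for Rhox5 and Rbp4, so the lack of overlap does not set the calls apart. Its share over all genes of the fit was not counted. Rhox5 (log2 0.87, adjusted p = 0.111), Rbp4 (0.76), Esx1 (0.38) and Wfdc2 (0.23) did not pass, and Krt18 was too low to test. Endothelial markers summed to 17343 and 13624 CPM in naive cells and 7555 and 5902 CPM with metastases, and the 50 core genes stood at 44.6% and 43.6% of the pooled metastasis core in naive cells and at 78.3% and 69.1% of the same brain's core with metastases; their part was not tested. Taking cells within 3 times the naive median depth left 0 of 5 tested (edgeR, 1 at an unadjusted p under 0.05, against 142 of all 1873 genes). Krt8 then had log2 0.26 and Serpinh1 0.44. Wfdc2 had -1.14 (edgeR adjusted p = 0.523), against 0.23 over all cells. The Krt8 call was lost without naive 1 (adjusted p = 0.0959) or metastasis 2 (0.0752). The Serpinh1 call was lost without naive 2 (0.125), metastasis 1 (0.0579) or metastasis 2 (0.0749), while Aebp1 kept its call without any single brain.

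In the mural-like cluster 11, 3.82% of 2620 genes rose and 12.3% fell (16.1% in all), and 3 of the 7 tested genes rose. Krt8 rose from 176 and 45.9 CPM to 506 and 748 CPM (log2 2.26, SE 0.45, adjusted p = 0.000790). Rbp4 (log2 1.94, SE 0.53) and Rhox5 (1.40, SE 0.38) rose, each with an adjusted p of 0.0125. Wfdc2, Esx1, Aebp1 and Serpinh1 had log2 0.73, 0.81, 0.92 and 0.39 and did not pass. These sums rest on few naive UMIs, 8 and 1 for Krt8 and 7 and 0 for Rbp4. Mural markers summed to 14475 and 26182 CPM in naive cells and to 2588 and 1987 CPM with metastases. The 50 core genes stood at 75.2% and 63.0% of the pooled metastasis core in naive cells of cluster 11. With metastases they stood at 99.1% and 97.1% of the same brain's core, and their part in the result was not tested. At the naive depth only 6 and 4 cells with metastases were left, and none of the 8 genes could be tested. Without metastasis 2 no call was left (Krt8 adjusted p = 0.292, Rhox5 0.288 and Rbp4 0.390). The Rbp4 call also ended without naive 2 (0.0748), and without naive 1 Esx1 passed (log2 2.84, adjusted p = 0.00357). By DESeq2, Krt8 was the 1 call.

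In the core clusters themselves, cells with a naive hashing call did not differ detectably from those with a metastasis call in any of the 8 genes (edgeR, adjusted p of at least 0.980); the hashing margins of the naive cells are given above. There 0 genes rose and 0.235% of 11467 fell, 0 of the 8 had an unadjusted p under 0.05 against 527 of all genes, and DESeq2 called 0 of the 8 too. Naive CPM were 564 and 368 for Krt8 against 445 and 700 with metastases, and 592 and 426 for Esx1 against 544 and 558, so the groups overlapped. Ttr was among the genes that fell there (log2 -2.13, SE 0.20).

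**Figure D4:**
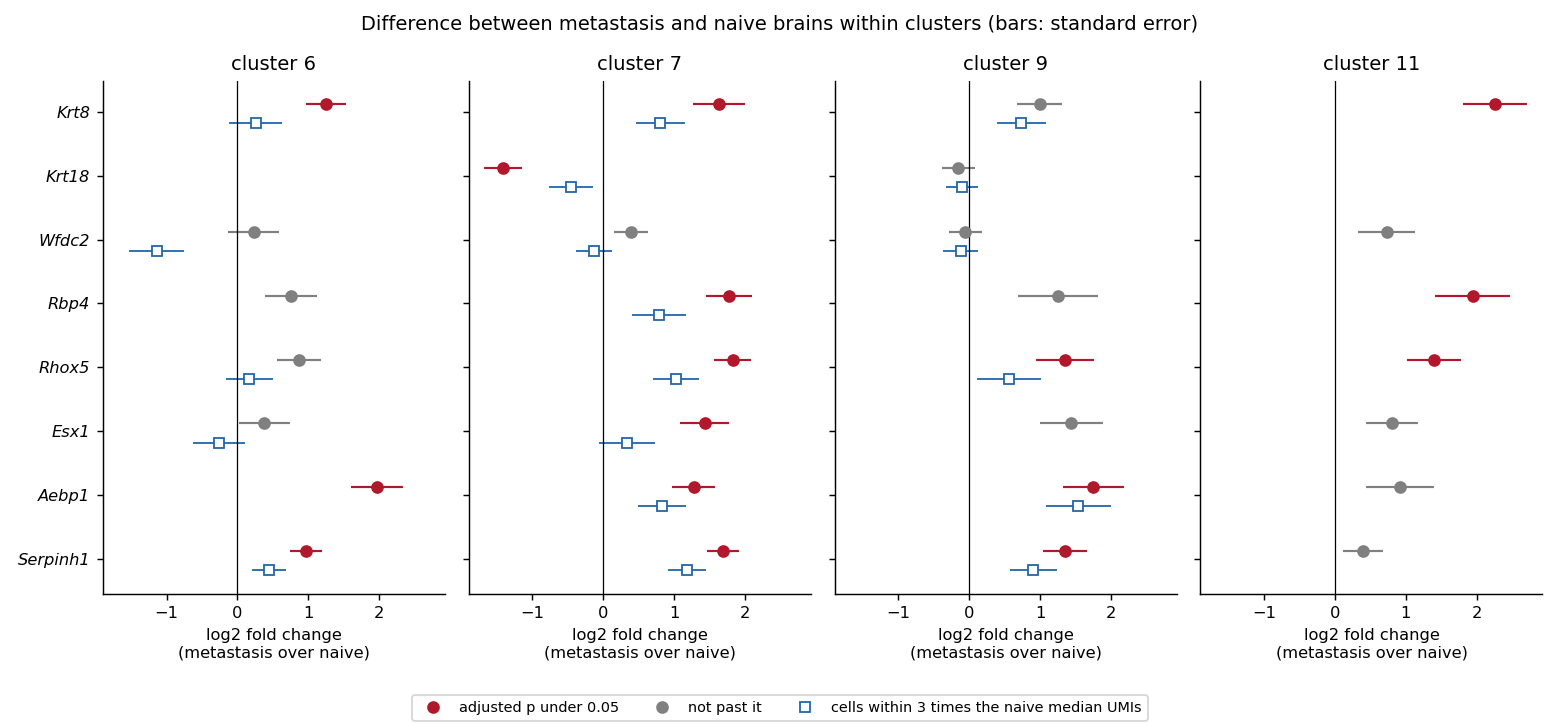
Log2 fold change of metastasis over naive brains within clusters 6, 7, 9 and 11 (points, with SE as bars; red past an adjusted p of 0.05), beside the values in cells within 3 times the naive median UMIs (open squares; none in cluster 11). In cluster 7 most filled points lie between 1 and 2, and the open squares lie closer to 0.

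Whether the condition difference itself varied between clusters 6, 7, 9 and 11 was tested in a joint fit with brain as a block. Of 6247 genes 9.01% passed, and of the 8 genes Krt18 did (edgeR F-test, adjusted p = 0.000555), while the others had 0.266 to 0.771. Without the single cluster 6 cell described above, an added choice, Krt18 had an adjusted p of 0.0634, and with no block 0.151, so the call rests on that cell and on the block.

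Among lists of related genes, most epithelial ones were below 10 CPM in the core clusters, while the mesenchymal list held both high and near-absent genes. Of 11 other keratins none reached 50 CPM and all stayed below 10, the highest being Krt80 at a mean of 1.36 CPM. Krt14 stood at 0.145 and 2.28 CPM and Krt17 at 0.169 and 1.00 CPM, both type I chains, and Krt19 at 0.0726 and 0.0386 CPM. Among 22 epithelial junction and identity genes none reached 50 CPM, and 20 were below 10. Spint2 led with 42.8 and 48.8 CPM, followed by the desmosomal plakophilin Pkp3 (17.2 and 13.5) and the protease St14 (7.79 and 7.51). Epcam had 1 and 8 UMIs and Cdh1, the E-cadherin gene, 1 and 0. Over all genes counted 8.70% reached 50 CPM, so most genes lay below that line, and the share of all genes below 10 CPM was not computed. Of 14 mesenchymal genes 4 did: the intermediate filament gene Vim (1473 and 1724 CPM), the matrix protein gene Sparc (394 and 516), S100a4 (222 and 440) and the transcription factor gene Twist2 (73.8 and 63.4). On the same list 4 genes were below 10 CPM, namely Tagln, Fn1, Cdh2 and Snai2.

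Of 33 other Rhox, placental or germline genes 3 reached 50 CPM, the imprinted placental gene Phlda2 (112 and 101 CPM), the germ cell gene Tex19.1 (76.8 and 71.7) and Rhox1. Rhox1, a neighbour of Rhox5 in its family, stood at 24.6 CPM in metastasis 1 and 104 CPM in metastasis 2, while Rhox5 stood level. Among 17 retinoid genes Ttr alone passed 50 CPM (638 and 549), beside 349517 CPM in cluster 9 of metastasis 1. The receptor gene Rara stood at 21.6 and 22.3 CPM and the retinoic acid hydroxylase gene Cyp26b1 at a mean of 14.8. None of 10 other WAP genes did, with the protease inhibitor gene Slpi at a mean of 25.6 CPM, Wfdc17 at 4.91 and 4.52 and Wfdc1 at 0.629 and 1.64. Of 7 carboxypeptidase genes Cpe did (101 and 118 CPM), with Cpd at 21.2 and 20.3 and Cpm at 0.363 and 0.193. Of 21 other collagen folding genes 8 did, led by Ppib (419 and 403 CPM), Pcolce (360 and 386) and P4hb (316 and 331).

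In the tests of condition in cluster 7, 9 of the collagen list's 16 tested genes rose and none fell, Serpinh1 among them, with a median log2 of 1.00 beside 0.11 over all genes, where 14.2% of all genes rose. The others were P4hb, Plod1, Ppib, Fkbp10, Colgalt1, Bmp1, Pcolce and Loxl2. Bmp1 had 0 naive UMIs against 30 and 42. Plod1 had 0 and 1 naive UMIs (log2 3.44) and Fkbp10 had 1 and 2 (log2 2.71), so the sizes of these rises are uncertain. The rest had log2 0.71 (Ppib) to 2.09 (Loxl2). Vim rose in clusters 6, 7 and 9 (log2 0.85, 2.12 and 1.90), Twist2 and Phlda2 in cluster 7 (2.37 and 1.66). Twist2 had 1 and 2 naive UMIs there and Phlda2 had 7 and 2. Falls in cluster 7 were in Krt10 (-3.09), Ocln (-2.43), Dsp (-2.56), Rdh10 (-1.87) and Dhrs3 (-2.02), that is, in 2 of 3 tested keratins with Krt18 and 3 of 4 epithelial genes with Spint2, besides retinoid genes, where 16.9% of all genes fell. Within 3 times the naive median depth 8 genes of the whole cluster rose, Serpinh1 not among them, and 0 fell, so that none of these falls was called there. Wfdc1 fell in cluster 6 (-1.70). Tagln (-3.31), Acta2 (-3.16), Sparc (-0.77) and Ttr (-2.65) fell in cluster 11. No list gene besides members fell or rose in cluster 9 apart from Vim. The lists were set with earlier results of these data known and give no independent support.

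The genes with the most similar profile over 25 sums of cluster and metastasis brain were found among 6096 genes by Pearson correlation of log2(CPM + 10). They were Polr2f, Baiap2 and Cenpm for Krt8 (r from 0.955 to 0.968), and Pebp1, Efemp2 and Zfp428 for Wfdc2 (0.909 to 0.951). Rbp4 and Esx1 were near neighbours of each other (0.980), with Phb2 close to both (0.980 and 0.983), then Mif for Rbp4 and Tomm40 for Esx1. Rhox5 had Tpi1, Phb and Idh3g (0.976 to 0.989), Aebp1 had Bmp1, Calu and Ktn1 (0.954 to 0.970), and Serpinh1 had Rab34, Mrpl38 and Nudc (0.964 to 0.979). Krt18 stood apart with Ntrk2, Mia and Fam84b (0.972 to 0.975). The profiles share 1 library, 2 brains and the contrast that chose the genes.

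The surface antibodies gave a readout that the choice of genes had not used. Core cells had a median of 1 CD45 tag and 2 CD11b tags in each of the 4 brains, near the endothelial-like cluster 6 (0 to 1 and 1 tags). The monocyte-like cluster 2 had medians of 116 and 118 CD45 tags and 143 and 152 CD11b tags in the brains with metastases. Core cells thus carried close to the CD45 and CD11b tags of cluster 6 and far fewer than cluster 2.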

How the data were processed

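RNA and antibody tags of 4 hashed brain suspensions (2 naive, 2 with metastases) came from 1 droplet run, while the design text speaks of 6 samples. The authors deposited raw UMI counts per gene and cell, raw tag counts and a per-cell table with cluster, hashing call and percent mitochondrial UMIs as computed by the authors. Cell Ranger 3.0.2, Seurat 3.0.1 and mm10 are named per the submitters' processing notes; their settings were not stated. Cells had 500 UMIs or more, with mitochondrial shares up to 24.9%. No cell was removed, no doublet caller was run and free RNA was not subtracted. The hashing margin is a score that the authors deposited per cell, the difference between its best and next tag, on a scale that is not stated. Totals ran from 694223 to 57620835 UMIs per brain.

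UMI counts were summed per brain and cluster and tested with edgeR 4.0.16 in R 4.3.3 (TMM, filterByExpr, quasi-likelihood, Benjamini-Hochberg at 0.05) where all 4 brains held at least 20 cells; SE is the size of the log2 fold change over the root of F. Nothing says that the brains came from separate days or litters, so p-values measure the spread between these suspensions. DESeq2 1.42.0, RLE scaling, no low-count filter, 3 choices of cells and each brain left out were alternatives. On simulated counts with 4-fold changes in 200 genes, 77% were called at the size of cluster 6 (4539 genes), 72.5% of cluster 7 (5963), 83% of cluster 9 (3473), 71.5% of cluster 11 (2620) and 59% of the core (11467). Shares have exact (Clopper-Pearson) 95% intervals, and a count of 0 allows up to 3 UMIs.

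The 8 genes, the gene lists and the tests were chosen with earlier results of these data known. Named besides them were the 3 most correlated genes of each, the 3 highest of each list and list genes that passed a test, of which 1 is not reported here.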

Additional observations from a re-analysis of the deposited data

Results flagged for a closer look

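Krt18 is the one gene of the 8 whose difference between conditions differed between clusters 6, 7, 9 and 11 by the test of the difference itself (edgeR F-test, adjusted p = 0.000555). Its UMIs were 56, 20, 59 and 90 in cluster 7 for naive 1, naive 2, metastasis 1 and metastasis 2, and 44, 46, 120 and 113 in cluster 9. In cluster 6 they were 1, 3, 1 and 45, with 35 of the 45 in a single cell that also held 18 Epcam UMIs, and in cluster 11 they were 0 in all 4 brains. Without that cell the adjusted p was 0.0634, and without brain as a block it was 0.151. No group holds enough brains to look for outlying samples.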

How the results depend on the processing

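Counts are given as genes or members of the 8 that were higher or lower with metastases. In cells within 3 times the naive median UMIs (added after the data were seen), cluster 6 had 0 higher and 0 lower genes and 0 members, cluster 7 had 8 and 0 genes and 0 members either way, cluster 9 had 16 and 0 genes and 0 members, and cluster 11 had 0, 0 and 0. Without cells above 3 times the median UMIs of their cluster and condition, cluster 6 had 4 higher and 0 lower genes and 0 members, cluster 7 had 218 and 182 genes with 2 members higher and 0 lower, cluster 9 had 29 and 1 genes and 0 members, cluster 11 had 292 higher genes and 6 members, and the core had 2 higher genes. With at most 10% mitochondrial UMIs, cluster 7 had 124 and 237 genes and 2 members higher, cluster 9 had 84 and 9 genes and 1 member, and the core had 6 lower genes. DESeq2 gave 65 and 110 genes in cluster 6, 309 and 517 in cluster 7, 58 and 9 with 0 members in cluster 9, 33 and 212 with 1 member in cluster 11, and 4 lower genes in the core. With no filter on low counts, cluster 6 had 0 and 0 genes and 0 members, cluster 7 had 1497 higher genes, cluster 9 had 7 lower genes, cluster 11 had 207 and 206 genes, and the core had 2 higher genes. RLE scaling gave 10 lower genes in the core. The cause of these moves was not tested, except that cell choices test fewer cells and genes.

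Leaving out 1 brain at a time gave 25 to 126 higher and 26 to 265 lower genes and 1 to 3 members in cluster 6, and 541 to 916 lower genes and 0 to 1 members lower in cluster 7. Cluster 9 had 4 to 85 higher and 0 to 11 lower genes and 0 to 1 members, cluster 11 had 0 to 188 and 0 to 204 genes and 0 to 4 members, and the core had 0 to 2 and 0 to 12 genes. No paired analysis was possible because the hashing numbers do not tie a naive brain to a brain with metastases. In the joint fit over clusters, no replicate block (brain) gave 295 genes and 0 members against 563 and 1, no filter gave 368 genes, and leaving out the cell with most Krt18 UMIs gave 0 members.

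Without mitochondrial and ribosomal protein genes in the denominator, core levels were 816 CPM for Krt8, 660 for Wfdc2, 511 for Rbp4, 851.5 for Rhox5, 786 for Esx1, 393 for Aebp1 and 1247 for Serpinh1, and the Wfdc2 ratio of cluster 5 to the other core clusters turned to 0.970. The mean of each cell's own CPM was 537 for Rhox5, 499 for Esx1 and 280.2 for Aebp1. Krt8 was detected in 39.2% of core cells at 1000 UMIs, 24.02% at 500 and 60.8% at 2000. The median correlation of the 7 genes was 0.0362 at 5000 UMIs and 0.0222 at 2000. Median log2 fold changes of all genes lay above 0.1 in clusters 7 (0.11) and 11 (0.13). Depth limits cluster 11 most, where Krt8 rests on 8 and 1 naive UMIs.

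Some fold changes that did not pass the test took the other sign. In cluster 6, Wfdc2 (log2 0.23) had -1.30 without cells above 3 times the median, -1.14 within 3 times the naive median, and -0.31 to 0.66 with a brain left out. Esx1 there (0.38) had -0.46 and -0.26 under those cell choices and -0.15 to 0.81 with a brain left out. Wfdc2 had -0.13 within 3 times the naive median in cluster 7, and in cluster 9 (log2 -0.05) it had 0.012 with no filter and -0.35 to 0.22 with a brain left out. In the core, leaving out a brain gave a log2 fold change of -0.16 to 0.64 for Krt8, -3.35 to 8.84 for Krt18 (from 0 naive UMIs at the upper end, so that its size has no meaning), -0.18 to 0.99 for Wfdc2, -0.082 to 1.19 for Rhox5, -0.085 to 0.37 for Esx1 and -0.019 to 0.43 for Serpinh1. The cause was not tested.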
